A study of Saccharomyces cerevisiae with 24 samples.

Results

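Yrr1 carrying the single amino acid change I775E was compared with the unchanged Yrr1 of strain S96 in cells exposed to 4-nitroquinoline-N-oxide (4NQO). The comparison used 6 of the 24 samples of the series, chosen by their labels: 3 chromatin immunoprecipitation (ChIP) libraries of S96-I775E in 4NQO and 3 of S96 in 4NQO. Every strain was Saccharomyces cerevisiae S96 without its own YRR1 gene (yrr1Δ) and carried 1 Myc-tagged YRR1 allele, here S96-I775E or S96, and the chromatin was precipitated with an antibody against Myc. Both groups were grown in YPD, a rich medium, with 0.25 µg/ml 4NQO for 2.5 h, and 1 input library was sequenced for each group. The study's design text speaks of triplicate cultures and its growth protocol of duplicate ones. The p-values therefore measure a spread between libraries that may be partly technical. In the limma tests below that spread was pooled over all 18 ChIP libraries of the series, while the permutation tests used the 6 compared here. Those 18 are 3 libraries each of the alleles S96-I775E, S96 and YJM789, in YPD with 4NQO and in YPD without it. A region was tested in limma only where each of these 6 groups had at least 2 values, so the YJM789 libraries entered both the spread and the choice of regions. Whether the tagged alleles stood on a plasmid or in the genome, and how many transformants a group holds, is not stated in the labels. Since each group was read against its own single input, a difference between inputs cannot be told apart from a difference between alleles.

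Yrr1 is a zinc cluster transcription factor that binds promoters of drug resistance genes and raises their transcription. Its best known target, SNQ2, encodes an ABC transporter of the plasma membrane that pumps 4NQO out of the cell, and 4NQO forms bulky adducts on DNA. Yrr1 also binds the promoter of its own gene, YRR1.

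The 4 places at which Yrr1 was looked for first were the promoters of SNQ2, SNG1 and YRR1 and a site at the 5′ end of IRT1. SNG1 encodes a membrane protein whose overexpression gives resistance to nitrosoguanidine. IRT1 is a noncoding transcript that runs into the promoter of IME1, the gene of the master regulator of meiosis. Below are the stretches of the genome build sacCer3 (sequence from RefSeq, R64) around each match to the Yrr1 recognition sequence, printed on the forward strand with the matches in capitals, because they are the sequences at which the alleles were compared. The sequence searched for, on both strands, was T or A, then CCG, C or T, G, G or T, and finally 2 bases that are each A or T.
SNQ2, chrIV:465283-465418: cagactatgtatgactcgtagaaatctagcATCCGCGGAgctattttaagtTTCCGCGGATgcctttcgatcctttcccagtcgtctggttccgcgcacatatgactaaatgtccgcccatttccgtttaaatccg
IRT1, chrX:607319-607387: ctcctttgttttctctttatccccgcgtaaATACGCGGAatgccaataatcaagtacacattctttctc
SNG1, chrVII:894451-894519: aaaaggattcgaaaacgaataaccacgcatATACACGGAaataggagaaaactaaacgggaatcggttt
YRR1, chrXV:642222-642291: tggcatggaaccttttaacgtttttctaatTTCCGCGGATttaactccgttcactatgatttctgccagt
SNQ2 held 3 matches, 2 of which overlap on opposite strands, and YRR1 held 2 that overlap in the same way, while IRT1 and SNG1 held 1 each. A match in itself is common: 9.15% of nuclear windows as long as the SNQ2 region held one, 14.0% of those as long as the IRT1 region, 10.3% for SNG1 and 6.74% for YRR1, against 7.94% of the 1688 nuclear regions in the table analysed here. The IRT1 match starts at position 607349 of chromosome X, inside the annotated IRT1 transcript and 67 bp from its 5′ end, and 1698 bp upstream of the IME1 start codon.

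Binding was read from 2 deposited measures. The first is the rise, which is the ChIP minus input coverage at the strongest point of a region less its mean over the surroundings, given for 1711 regions and each library. The second is the list of MACS2 peaks of each library, with the fold enrichment of the summit over local background. Read totals are not in the tables used here, so depth is unknown. The 6 libraries were not alike: S96-I775E libraries had 61, 34 and 29 MACS2 peaks, against 43, 125 and 179 in S96 libraries, and the rise was empty at 66 to 75 regions in S96-I775E, against 86 to 129 in S96. Their median rise over nuclear regions was close, at 25.8 to 26.9 in S96-I775E and 26.7 to 27.2 in S96. No sample of an untagged strain was analysed here.

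At SNQ2 the I775E protein gave the peak of highest fold enrichment in its libraries, and a signal above that of the S96 protein. The rise at the SNQ2 promoter (chromosome IV, 464940 to 465905) was 225, 218 and 235 in the S96-I775E libraries, against 173, 161 and 184 in the S96 libraries. Each S96-I775E library lay above every S96 library. The mean rise was 226 ± 8.86 in S96-I775E and 173 ± 11.7 in S96 (SD, n = 3 each), a log2 difference of 0.39 ± 0.09 (SE), or 1.31-fold, with an adjusted p of 0.013 from limma over 1350 regions. MACS2 fold enrichment at SNQ2 was 3.803, 3.64 and 3.91 in S96-I775E, against 2.57, 2.56 and 2.82 in S96. These values did not overlap either, and the exact permutation test gave the smallest p that 3 against 3 libraries allow, 0.1 (two-sided). The ratio moved with both of its parts: the pileup at the summit averaged 184 in S96-I775E and 162 in S96, and the local background 48.7 in S96-I775E and 61.3 in S96. The adjusted p for the rise was 0.074 without S96 replicate 2, 0.0624 without S96-I775E replicate 1 and 0.0683 without S96-I775E replicate 3. It was also above 0.05 under 6 of 13 other settings, in each of which the direction held. Among these, the adjusted p from limma was 0.13 with only the compared groups and 0.469 with no mean-variance trend.

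At IRT1 the order of the alleles was the opposite. The rise at the region over the IRT1 5′ end (chromosome X, 606408 to 607949) was 111, 107 and 155 in the S96-I775E libraries, against 294, 231 and 254 in the S96 libraries. The highest S96-I775E library was below the lowest S96 library. IRT1 averaged 125 ± 26.7 in S96-I775E and 259 ± 31.9 in S96 (SD, n = 3 each), a log2 difference of -1.07 ± 0.11 (SE), or 0.478-fold, with an adjusted p of 1.54e-07 from limma. MACS2 fold enrichment at IRT1 was 2.44, 2.33 and 3.02 in S96-I775E, against 5.06, 4.19 and 4.51 in S96, again with no overlap (exact permutation p = 0.1, the smallest possible). Here the local background was nearly equal, at 43.5 in S96-I775E and 45.7 in S96, and the pileup carried the difference, averaging 113 in S96-I775E and 209.6 in S96. The call at IRT1 held on leaving out any of the 6 libraries and under the 13 other settings too, where its adjusted p ranged up to 0.0386.

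Since both sites sit in the same libraries, a scaling factor shared by the ChIP and input coverage of a library drops out of their ratio. A difference between the inputs, or in the scaling of input against ChIP, does not drop out, and its part was not tested. The rise at SNQ2 over that at IRT1 was 2.02, 2.03 and 1.51 in S96-I775E libraries, against 0.587, 0.697 and 0.725 in S96 libraries. SNQ2 thus exceeded IRT1 in each S96-I775E library and lay under it in each S96 library. The mean ratio was 1.85 ± 0.295 in S96-I775E and 0.67 ± 0.073 in S96 (SD, n = 3 each; exact permutation p = 0.1, the smallest possible). The same ratio taken from MACS2 fold enrichment was 1.47 ± 0.155 in S96-I775E and 0.582 ± 0.0641 in S96. By fold enrichment SNQ2 was at rank 1 of all peaks in each S96-I775E library, and IRT1 at ranks 5, 5 and 2. In each S96 library IRT1 was at rank 1 and SNQ2 at rank 2. In the authors' deposited table of CisGenome peaks, made per group, SNQ2 ranked 1 of 60 with a log2 fold change of 2.41 in S96-I775E, and 3 of 70 with 1.84 in S96. IRT1 ranked 7 of 60 with 2.04 in S96-I775E and 1 of 70 with 3.27 in S96, in the authors' deposited table under the same setting. The FDR was 1 for these entries. Under another of the 4 deposited settings the authors' deposited table had SNQ2 at rank 18 of 35 with 1.05 in S96-I775E and 7 of 36 with 1.05 in S96, and IRT1 at rank 13 of 35 with 1.05 in S96-I775E and 1 of 36 with 1.54 in S96. There S96-I775E had further SNQ2 entries at ranks 30 and 32, with 0.868 and 0.867. Under the remaining settings SNQ2 had 2.31 in S96-I775E and 1.76 in S96, and 0.944 in S96-I775E and 0.931 in S96. So both the rank of SNQ2 and its difference between the alleles depended on the CisGenome setting. IRT1 had the lower log2 fold change in S96-I775E under all 4.

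**Figure D1:**
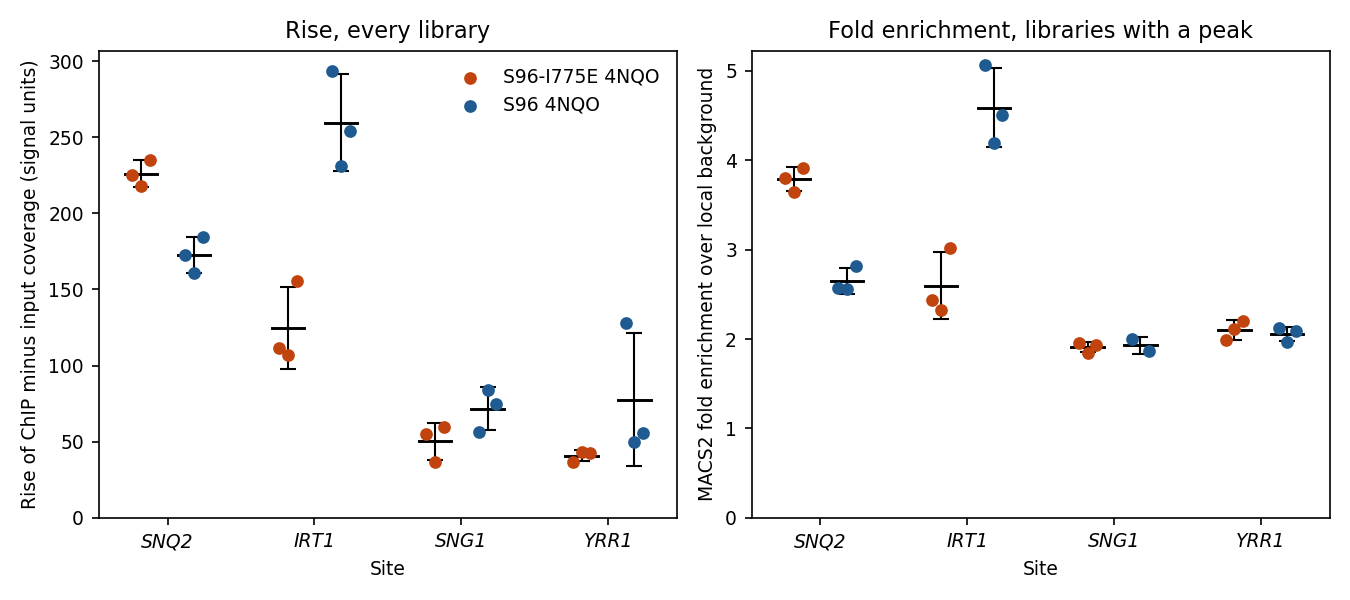
Rise (left, signal units) and MACS2 fold enrichment (right, ratio) at the SNQ2, IRT1, SNG1 and YRR1 sites, with S96-I775E 4NQO left of S96 4NQO. Points are libraries, lines the mean and bars the SD; S96-I775E is above S96 at SNQ2 and below it at IRT1 on both scales, and at SNG1 and YRR1 the fold enrichment of the alleles overlaps.

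The SNG1 and YRR1 promoters did not pass the test. At SNG1 (chromosome VII, 893849 to 894948, between the divergent genes SNG1 and YPP1) the rise was 55.1, 36.7 and 59.5 in S96-I775E and 56.7, 84.2 and 74.5 in S96. The groups overlapped, and the log2 difference was -0.51 ± 0.21 (SE) with an adjusted p of 0.236 from limma. SNG1 fold enrichment was 1.95, 1.85 and 1.94 in S96-I775E, against 1.9995 and 1.86 in S96 replicates 2 and 3. S96 replicate 1 had no MACS2 peak at SNG1. In the libraries with a peak, the SNG1 summit pileup was 90.1 ± 2.48 in S96-I775E and 124.55 ± 6.25 in S96. The local background at SNG1 was 47.1 ± 0.571 in S96-I775E and 64.5 ± 0.0275 in S96 (SD, n = 3 and n = 2), so both were lower in S96-I775E. At the YRR1 promoter (chromosome XV, 642006 to 642721) the rise was 36.7, 43.5 and 42.5 in S96-I775E and 128, 49.6 and 55.9 in S96. All S96-I775E libraries were below all S96 libraries at YRR1, but S96 replicate 1 stood far above the other S96 libraries. The log2 difference at YRR1 was -0.78 ± 0.35 (SE) with an adjusted p of 0.298 from limma. It was -0.36 without S96 replicate 1, -0.12 with no background subtracted and -0.05 in the m2 set, a second deposited parameter set. By fold enrichment YRR1 was level, at 1.98, 2.11 and 2.21 in S96-I775E and 2.12, 1.97 and 2.09 in S96 (exact permutation p = 0.6, two-sided). Both the summit pileup and the local background at YRR1 were lower in S96-I775E, with a pileup of 139.5 ± 6.57 in S96-I775E and 192 ± 18.8 in S96, and a background of 66.5 ± 2.99 in S96-I775E and 93.2 ± 5.88 in S96 (SD, n = 3 each).

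The position of the signal can be set against the sequences above. At IRT1 the MACS2 summits lay 0 to 1 bp from the match in S96 and 5 to 22 bp from it in S96-I775E, so both alleles were centred on it. At SNQ2 the summits lay 54 to 66 bp from the nearest match in S96-I775E and 52 to 70 bp from it in S96. The strongest point of the SNQ2 rise was the same base, 465408, in the 3 S96-I775E libraries, and lay between 465386 and 465400 in S96. SNG1 summits were 0 to 73 bp from the match in S96-I775E and 26 to 31 bp in S96. YRR1 summits were 55 to 134 bp from the nearest match in S96-I775E and 92 to 167 bp in S96. The strongest points of the YRR1 rise ran the other way, at 114 to 219 bp from the nearest match in S96-I775E and 0 to 50 bp in S96. No test was run on these distances.

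A region was counted as bound in a group when at least 2 of its 3 libraries had a MACS2 peak there. By this count S96-I775E had 31 bound regions and S96 had 61, and 13 were shared, which is 41.9% of those of S96-I775E and 21.3% of those of S96. Those with a peak in every library were 14 of 31 in S96-I775E and 8 of 61 in S96. The S96 count rested on single libraries, with 41 bound regions without S96 replicate 1, 27 without replicate 2 and 9 without replicate 3. The S96-I775E count was 16 without replicate 1, 20 without replicate 2 and 23 without replicate 3. The shared count fell to 6 without S96-I775E replicate 1, to 7 without S96 replicate 2 and to 6 without S96 replicate 3. With a library left out, a peak was needed in each remaining library of that group, while the other group kept the rule of 2 of 3. The order of the groups in number of bound regions turned when S96 replicate 2 or S96 replicate 3 was left out. It also turned when a peak was required in all 3 libraries or a fold of at least 2.

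The shared regions were the SNQ2, IRT1, SNG1 and YRR1 sites, the neighbourhood of RPL8A, the tRNA genes SUP17 and YNCE0010W, the RRT15 promoter, and YLR159W, RPL5, YEF3, ADH1 and RPL4B. RPL5 and RPL4B encode proteins of the large ribosomal subunit, YEF3 a translation elongation factor and ADH1 the main fermentative alcohol dehydrogenase. The mean fold enrichment at the 5 genes from YLR159W to RPL4B was 1.67 to 1.75 in S96-I775E and 1.61 to 1.79 in S96, far under that at SNQ2 or IRT1. After SNQ2 (mean fold 3.78), the highest bound regions of S96-I775E were near YCL075W (2.99), near YNR077C (2.69), IRT1 (2.60) and near YLL066C (2.32). The regions near YCL075W and YNR077C lie 88 and 61 bp from the ends of chromosomes III and XIV, and that near YLL066C lies 11072 bp from an end of chromosome XII. Of the regions bound in S96-I775E, 4 lay within 15 kb of a chromosome end, namely these and another near IMD2, against 0 of the 61 bound in S96. The share of all regions within this distance was not counted. The distance was chosen after the values were seen, and no test was run. A single S96 library had a peak near YCL075W, near YLL066C and near IMD2, and none had one near YNR077C. The 0 in S96 thus rests in part on the rule of at least 2 libraries. After IRT1 (4.59) and SNQ2 (2.65), the highest bound regions of S96 were at SNR63 (2.35), a small nucleolar RNA gene, near SUP17 (2.32) and near the tRNA gene YNCJ0023C (2.08). Each mean fold is over the libraries with a peak, and S96 replicate 2 had none at SNR63 or near YNCJ0023C. Regions over nuclear tRNA genes were 8 of the 31 bound in S96-I775E (25.8%) and 15 of the 61 bound in S96 (24.6%), beside 15.4% of the regions tested on the rise; no test was run on these shares.

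**Figure D2:**
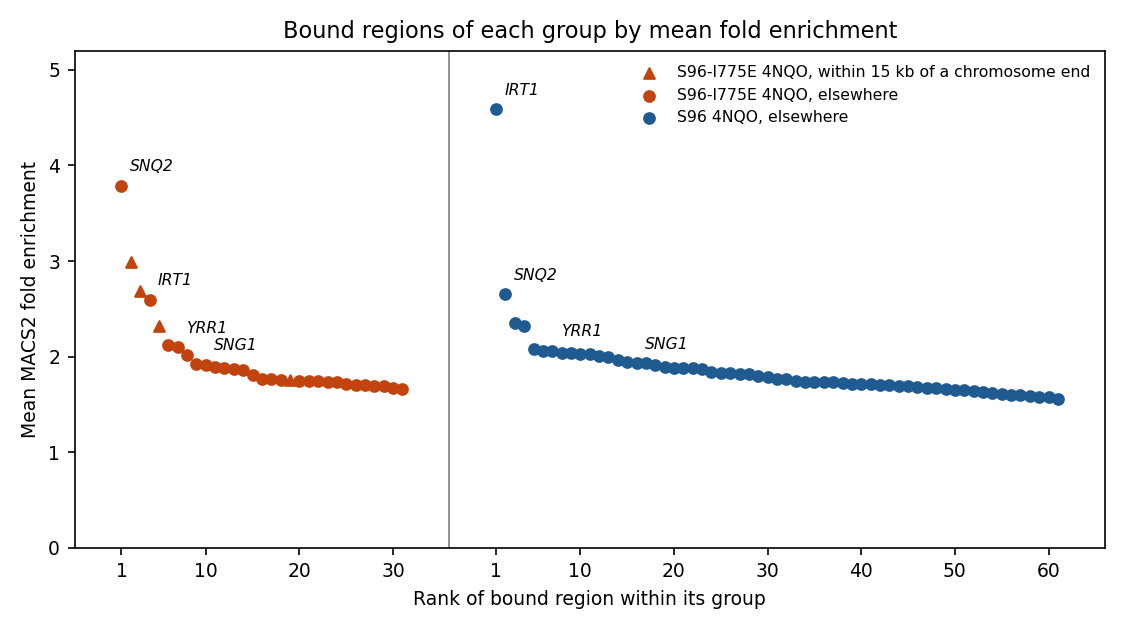
Mean MACS2 fold enrichment (ratio, over the libraries with a peak) of the bound regions of S96-I775E 4NQO (left) and S96 4NQO (right), ordered by rank within each group. SNQ2 leads the 31 regions of S96-I775E and IRT1 the 61 of S96. Triangles mark the 4 bound regions within 15 kb of a chromosome end, a distance chosen after the values were seen. All 4 are in the S96-I775E list, but near YCL075W, YLL066C and IMD2 a single S96 library also had a peak. The share of all regions within this distance was not counted.

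Across all regions the alleles differed at few places. Of 1350 regions tested on the rise, 17 were higher in S96-I775E (1.26%) and 8 were lower (0.593%) at an adjusted p under 0.05 in limma, and the median log2 difference over all tested regions was -0.03. At 24 of these 25 the libraries of the groups did not overlap, which was also the case for 22.0% of the 1228 regions with a value in all 6 libraries. SNQ2 and IRT1 were the sole regions of the 25 with a MACS2 peak in 2 or more libraries on the side whose rise was higher. The count was 13 without S96-I775E replicate 1 (10 higher and 3 lower) and 18 to 21 with any other library left out, and 11 of the 25 calls held with each library left out.

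Besides IRT1, 7 regions were lower in S96-I775E, and DCD1 was the clearest. DCD1 encodes deoxycytidylate deaminase, an enzyme of thymidine nucleotide synthesis, and its region (chromosome VIII, 388591 to 389266) also covers SUF8, a gene for a proline tRNA. The rise at DCD1 was 24.05, 16.8 and 15.9 in S96-I775E, against 59.4, 64.8 and 74.4 in S96. The groups lay far apart, with a log2 difference of -1.77 ± 0.30 (SE) and an adjusted p of 0.000465 from limma. DCD1 had no MACS2 peak in any of the 6 libraries. The authors' deposited table of CisGenome peaks lists DCD1 for S96 and not for S96-I775E. In the authors' deposited table its rank in S96 was 37 of 70 under a first setting, with a log2 fold change of 1.16. Under another setting it was 39 of 106, with 1.03. The authors' deposited table gives neither entry an FDR under 0.05, and does not list DCD1 under the remaining settings. The region at the PTR3 promoter covers the tyrosine tRNA gene SUP6, and that at the PEX25 promoter covers the methionine tRNA gene IMT2. PTR3, a component of the amino acid sensor of the plasma membrane, had a rise of 17.4, 26.5 and 23.9 in S96-I775E, against 67.0, 43.9 and 75.3 in S96. PEX25, a peroxisomal membrane protein gene, had 18.3, 20.5 and 14.7 in S96-I775E, against 34.2, 51.9 and 56.6 in S96. The log2 difference was -1.40 at PTR3 and -1.34 at PEX25 (adjusted p 0.013 and 0.0173, limma). So 3 of the 8 lower regions lay over a nuclear tRNA gene, as did 1 of the 17 higher ones and 15.4% of the regions tested.

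The other lower regions were TKL2, a transketolase gene, FAA1, a fatty acid activating enzyme gene, SAM2, a gene of S-adenosylmethionine synthesis, and the promoter of OPT1, an oligopeptide transporter gene. TKL2 had a rise of 22.6, 12.6 and 14.1 in S96-I775E, against 56.1, 53.0 and 37.7 in S96, a log2 difference of -1.54. At FAA1 the rise was 12.7, 15.1 and 14.3 in S96-I775E, against 50.6 and 41.02 in S96, where replicate 3 was empty and was left out by the fit. FAA1 had a log2 difference of -1.64, SAM2 one of -1.17 and OPT1 one of -1.01, and the means at SAM2 were 19.6 in S96-I775E and 46.1 in S96. DCD1 and IRT1 were the lower regions whose call held with each library left out. The highest adjusted p on leaving out 1 library was 0.0661 for TKL2 (without S96-I775E replicate 2), 0.197 for FAA1 (S96 replicate 1), 0.0983 for PTR3 (S96-I775E replicate 1), 0.11 for PEX25, 0.122 for SAM2 and 0.131 for OPT1 (each without S96-I775E replicate 3). The mean deposited background at DCD1, FAA1, SAM2 and OPT1 was between 9.17 and 15.9 in S96-I775E, and between -13.0 and -3.17 in S96. At PTR3 the background was 22.5 in S96-I775E and 0.0758 in S96, and at TKL2 20.4 in S96-I775E and 10.2 in S96. PEX25 had nearly equal backgrounds, at 16.6 in S96-I775E and 16.4 in S96. The coverage at the strongest point itself, with no background subtracted, was at DCD1 34.8 ± 8.20 in S96-I775E and 62.6 ± 14.8 in S96 (SD, n = 3 each). On that scale DCD1 (log2 difference -0.83, adjusted p 0.0348 in limma) and PEX25 (-0.88, 0.0249) passed, and FAA1, TKL2, PTR3, SAM2 and OPT1 did not. In the m2 set DCD1 passed (-1.66, adjusted p 0.00426 in limma), as did PTR3. PEX25 (-0.44), SAM2 (-0.63), OPT1 (-0.60) and FAA1 (-1.01) did not pass there, at adjusted p of 0.234 to 0.678.

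Of the 17 higher regions, 7 were nuclear and outside the ribosomal DNA, among them SNQ2. A subtelomeric region of chromosome XII (1064223 to 1065399), near YLR462W, had a rise of 110.2, 92.9 and 98.4 in S96-I775E, against 37.4, 39.5 and 52.2 in S96. All S96-I775E libraries near YLR462W were above all S96 libraries, with a log2 difference of 1.22 ± 0.24 (SE) and an adjusted p of 0.00305 from limma. That call was kept on leaving out any library and under the 13 other settings. The largest log2 difference was at the promoter of PUT7 (1.78), where the rise was 77.0, 58.2 and 58.2 in S96-I775E and 20.5, 23.1 and 11.95 in S96. GAT1, which encodes an activator of nitrogen-repressed genes, had 71.0, 43.7 and 44.0 in S96-I775E and 14.5, 20.2 and 15.01 in S96 at its promoter, a log2 difference of 1.59. STE20, a kinase gene of the mating pathway, had 35.6, 66.4 and 62.5 in S96-I775E and 17.98, 25.7 and 11.3 in S96 within its coding region, a log2 difference of 1.55. A region of chromosome XV (27162 to 28290) beyond the 3′ end of HPF1, a cell wall mannoprotein gene, averaged 69.3 in S96-I775E and 37.1 in S96. There the reverse MACS2 test, which lists places where input exceeds ChIP, had a peak in 3 S96-I775E libraries and in 0 S96 libraries. None of these 4 calls held with each library left out, and the highest adjusted p was 0.114 for PUT7 (without S96 replicate 3), 0.15 for GAT1 (S96-I775E replicate 1), 0.174 for STE20 (S96 replicate 3) and 0.251 for the chromosome XV region near YOL155W-A (S96 replicate 2). The mean background at GAT1 was -8.21 in S96-I775E and 13.98 in S96, and at PUT7 -5.02 in S96-I775E and 10.8 in S96. SNQ2 (log2 difference 0.45) and the region near YLR462W (1.53) also passed with no background subtracted (adjusted p 0.0183 and 0.0303, limma). PUT7 (1.01), GAT1 (0.51), STE20 (1.89) and the region near YOL155W-A (1.98) did not, at adjusted p of 0.268 to 0.622.

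The remaining nuclear region that was higher in S96-I775E lay over SUP4, a tyrosine tRNA gene like SUP6, which was lower. Both genes are printed here on their own strand because they are near copies, with the sequence GTTCGANNC of the internal B box of tRNA genes in capitals (it is in 72.7% of 275 nuclear tRNA genes on their own strand).
SUP4, chrX:542956-543044 (minus strand): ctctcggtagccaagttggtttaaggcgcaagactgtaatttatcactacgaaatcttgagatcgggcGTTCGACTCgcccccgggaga
SUP6, chrVI:210619-210707 (minus strand): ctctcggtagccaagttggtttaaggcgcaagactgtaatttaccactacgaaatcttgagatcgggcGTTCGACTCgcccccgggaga
Counted from the 5′ end of the 89 bases, SUP6 and SUP4 differ by C44T. The rise near SUP4 was 36.1, 47.1 and 25.9 in S96-I775E, against 7.23, 11.2 and 14.7 in S96, with a log2 difference of 1.64 and an adjusted p of 0.0152 from limma. It went the other way from that at SUP6, given above with PTR3. The labels do not say how reads that fit several copies were placed, so the split of signal among such copies is uncertain. In the library of highest rise, the strongest point lay outside the printed genes, 110 bp from SUP4 and 24 bp from SUP6. The call near SUP4 was lost without S96 replicate 1 (adjusted p 0.106), S96-I775E replicate 1 (0.0659) or S96-I775E replicate 2 (0.0953). The log2 difference near SUP4 was 0.28 with no background subtracted (adjusted p 0.706) and 0.59 in the m2 set (0.623).

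**Figure D3:**
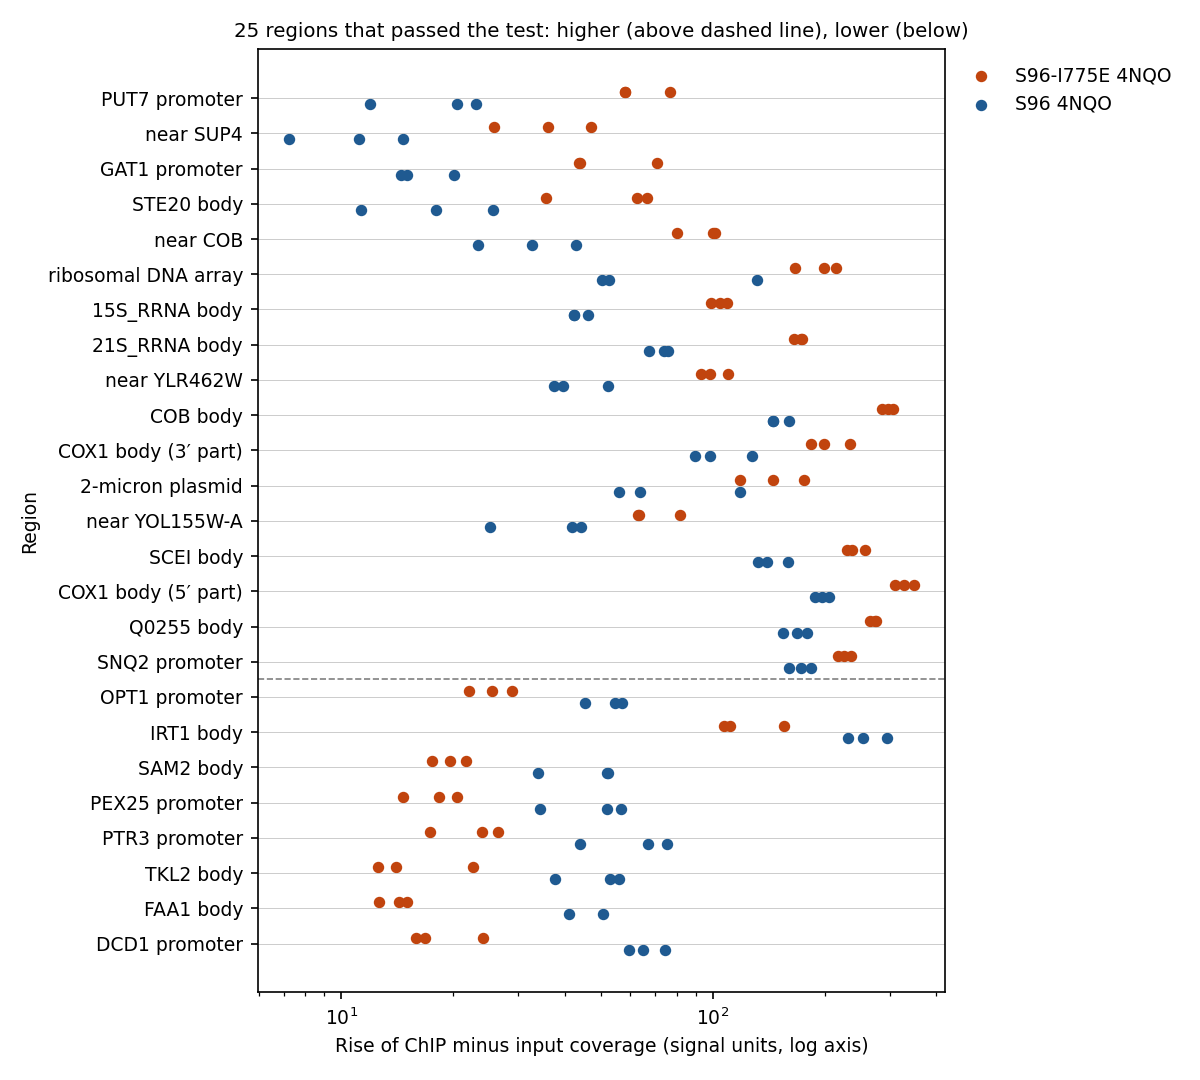
Rise (signal units, log axis) in each library at the 25 regions that passed the test, S96-I775E 4NQO plotted above S96 4NQO within each row. The 17 regions above the dashed line were higher and the 8 below it lower in S96-I775E; the 2-micron plasmid is the region at which the libraries of the groups overlap.

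The other 10 higher regions lay on multicopy DNA: 8 on the mitochondrial genome, 1 over the ribosomal DNA array and 1 on the 2-micron plasmid. Of 18 mitochondrial regions, 8 had enough values to be tested. All 8 were higher, over COX1, COB, Q0255 and SCEI, the 15S and 21S ribosomal RNA genes and a stretch near COB, with log2 differences of 0.70 to 1.51. In the library of highest rise, the strongest point was an end base of the region at both COX1 regions, COB, Q0255, the 15S gene and the stretch near COB. COX1 and COB encode subunits of respiratory complexes, and SCEI a homing endonuclease. The rise over COB was 296, 306 and 285 in S96-I775E, against 145, 160.2 and 145 in S96, a log2 difference of 0.97 ± 0.08 (SE) with an adjusted p of 3.87e-09 from limma. No mitochondrial region had a MACS2 peak, and the reverse test listed all 8 in 3 S96-I775E libraries and 7 of them in 3 S96 libraries. At COB the mean background was -293 in S96-I775E and -149 in S96, and the coverage at the strongest point was 2.37 in S96-I775E and 1.63 in S96. Over the 8 regions the mean coverage at the strongest point lay between -43.4 and 2.37 in S96-I775E, and between -6.57 and 8.93 in S96. Each mean background was below 0, so input exceeded ChIP around these points. The ribosomal DNA array had a rise of 199, 214 and 167 in S96-I775E and 52.5, 50.3 and 132 in S96, a log2 difference of 1.44 ± 0.25 (SE; adjusted p 0.000576, limma). Its background averaged -113 in S96-I775E and -25.4 in S96. On the 2-micron plasmid the rise was 145, 177 and 118 in S96-I775E and 56.0, 63.9 and 119 in S96, and the background -117 in S96-I775E and -28.9 in S96. With no background subtracted, where coverage below 0 was set to 0 before the logarithm, none of the 10 was called higher. At 3 of them, the longer COX1 region, SCEI and the stretch near COB, that step put the difference at 0, so the scale could not show one. The 2-micron call was also lost without S96 replicate 1 (adjusted p 0.148), S96 replicate 2 (0.132), S96-I775E replicate 1 (0.0985) or S96-I775E replicate 2 (0.154), and that over the 15S ribosomal RNA gene without S96-I775E replicate 1 (0.0582).

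**Figure D4:**
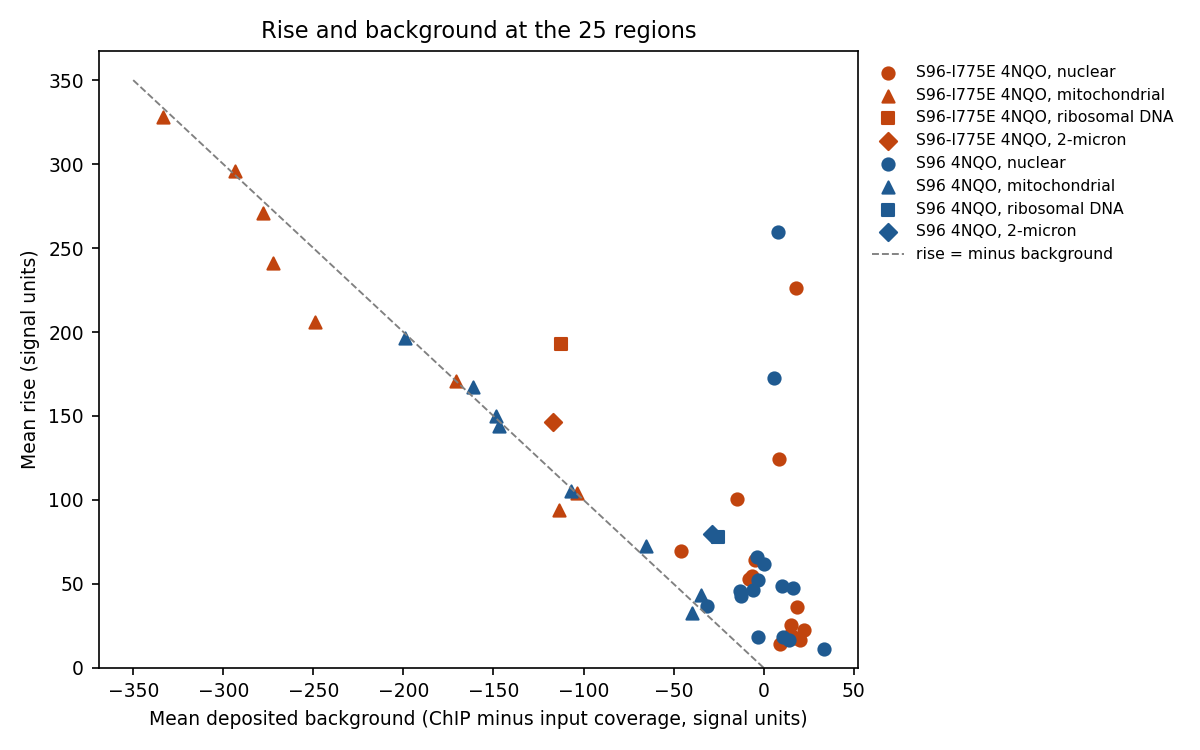
Mean rise (signal units) against mean deposited background (ChIP minus input coverage, signal units) at the 25 regions in S96-I775E 4NQO and S96 4NQO. The 8 mitochondrial regions (triangles) lie near the dashed line on which the rise equals minus the background, and those of S96-I775E reach further along it, while SNQ2 and IRT1 stand at backgrounds near 0.

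No tested region at a drug resistance gene other than SNQ2 passed. The list of 42 such genes, of which 40 are in the annotation, had 9 tested regions. Of these 9, 1 was higher (SNQ2) and 0 were lower, and their median log2 difference was -0.27, beside -0.03 over all regions tested. Most listed genes had no tested region, and only at SNQ2, SNG1 and YRR1 was one placed at the promoter of the listed gene. PDR5, the main exporter of the pleiotropic drug resistance network, had a mean rise of 23.3 in S96-I775E and 32.1 in S96 within its coding region (log2 difference -0.44, adjusted p 0.654, limma). The region at PDR3, a related zinc cluster activator, had 44.3 in S96-I775E and 38.6 in S96 (log2 difference 0.19, adjusted p 0.804). TPO1, a polyamine exporter gene, had 18.2 in S96-I775E and 21.8 in S96, and PDR17, a phosphatidylinositol transfer protein gene, 21.9 in S96-I775E and 18.4 in S96. A second region at YRR1, within the coding sequence, had 28.5, 11.3 and 26.7 in S96-I775E and 28.8, 48.2 and 36.4 in S96, which did not overlap, with a log2 difference of -0.82 and an adjusted p of 0.252. YGR035C, a gene induced by drugs, had 33.5 in S96-I775E and 30.6 in S96.

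No region of the other gene lists was called in this comparison. Of 20 tested regions at genes of glycolysis and fermentation, 26 at translation factors and chaperones, 26 at cell wall and mannoprotein genes, 10 at nuclear genes of respiration, 8 at DNA damage genes and 9 at oxidative and general stress genes, 0 were higher and 0 lower by limma at an adjusted p under 0.05. Their median log2 differences lay between -0.27 (DNA damage) and 0.02 (respiration). Cytosolic ribosomal protein genes had 113 tested regions, 0 of them called, with a median of -0.11. Nuclear tRNA genes had 208, of which 1 was higher and 3 were lower, with a median of -0.03. Of 115 nuclear regions with a match to the Yrr1 sequence 3 were higher (SNQ2, PUT7 and the chromosome XV region near YOL155W-A) and 1 was lower (IRT1), against 4 higher and 7 lower of 1223 without a match. The median was -0.06 in regions with a match and -0.03 in those without.

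The difference between the alleles was then set against that in YPD without 4NQO, where the series holds 3 ChIP libraries of each allele. The S96 libraries in YPD stand apart: their median background over nuclear regions was -12.2 to -8.74 and 256 to 295 regions were empty, against 4.19 to 7.95 and 70 to 85 in S96-I775E in YPD. The difference of the differences, tested in the same fit, was higher in 4NQO at 26 regions (1.93%) and lower at 9 (0.667%), with a median of 0.21 over all regions. After the libraries' median rises were set equal, that median was 0.0045 and the split became 6 higher and 13 lower. The total of 35 fell to 13 without S96 4NQO replicate 3, to 16 without S96-I775E YPD replicate 3, to 17 without S96 YPD replicate 2 and to 19 without S96-I775E 4NQO replicate 1. It was 20 without S96-I775E YPD replicate 2, 21 without S96 YPD replicate 3 and 23 without S96-I775E 4NQO replicate 3.

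IRT1 was lower with the I775E protein in both media, and less so in 4NQO. In YPD the rise at IRT1 was 94.4, 104 and 98.0 in S96-I775E, against 327, 335 and 365 in S96, a log2 difference of -1.78 ± 0.11 (SE) beside the -1.07 in 4NQO. The difference between media was 0.72 ± 0.16 (SE) with an adjusted p of 0.0147 from limma. SNQ2 was higher with I775E in 4NQO, while in YPD it had 183, 150.2 and 165 in S96-I775E and 184, 166 and 182 in S96, which overlap. The difference between media at SNQ2 was 0.49 ± 0.12 (SE; adjusted p 0.0377). Both calls were lost after the median rises were set equal, at which IRT1 had 0.51 and SNQ2 0.28. SNQ2 was also lost with any of 8 of the 12 libraries left out, at adjusted p up to 0.0861 (without S96-I775E YPD replicate 2), and IRT1 with none. The SNQ2 call was also lost with empty rises at 0 (adjusted p 0.0876), in the m2 set (0.144), with no mean-variance trend (0.499) and with nuclear regions only (0.088). The IRT1 call was also lost with empty rises at 0 (adjusted p 0.057) and with no mean-variance trend (0.302). At YRR1 the rise in YPD was 18.8, 34.6 and 48.4 in S96-I775E, against 143, 145 and 136 in S96, and the difference between media, 1.34 ± 0.50 (SE), did not pass (adjusted p 0.141). SNG1 in YPD had 58.2, 60.9 and 43.6 in S96-I775E, against 117, 117 and 88.5 in S96, and a difference between media of 0.46 ± 0.30 (adjusted p 0.446).

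Of the 9 regions that were lower with I775E in 4NQO relative to YPD 6 lay over tRNA genes, as did 5 of the 26 higher ones and 15.4% of the regions tested. No test was run on these shares, and the lower regions became 13 with equal median rises and 44 with empty rises at 0. At DCD1 the rise in YPD was 31.6, 30.9 and 49.0 in S96-I775E, against 13.0, 20.03 and 29.1 in S96. The S96-I775E libraries at DCD1 were thus all above those of S96 in YPD and all below them in 4NQO, with a difference between media of -2.62 ± 0.43 (SE; adjusted p 0.00203). The difference in YPD alone did not pass at DCD1 (adjusted p 0.0816) or PEX25 (0.0731). PEX25 (tRNA gene IMT2) averaged 45.3 in S96-I775E and 23.0 in S96 in YPD, and the promoter of RPT2, a proteasome ATPase gene beside the tRNA gene YNCD0006W, 62.1 in S96-I775E and 25.9 in S96. The tRNA gene YNCM0023C had 64.6 in S96-I775E and 18.3 in S96 in YPD, and the neighbourhood of SNR52, a small nucleolar RNA gene that RNA polymerase III transcribes, 63.2 in S96-I775E and 20.6 in S96. The difference between media was -2.26 at PEX25, -2.19 at RPT2, -2.14 at YNCM0023C and -2.47 near SNR52, with adjusted p of 0.00713 to 0.0154. YNCM0023C had an adjusted p of 0.0575 without S96 4NQO replicate 3 and 0.0798 in the m2 set, where PEX25 had 0.0823. With no background subtracted the difference between media was -1.26 at DCD1, -1.18 at PEX25, -1.04 at YNCM0023C and -1.81 near SNR52, which passed, and -0.94 at RPT2, which did not (adjusted p 0.135). In the opposite direction, RPS14A, YGR079W, TDH2 and the promoter of PRE7 had differences between media of 1.90 to 2.33. RPS14A, a ribosomal protein gene, averaged 40.5 in S96-I775E and 21.2 in S96 in 4NQO, and 18.6 in S96-I775E and 51.8 in S96 in YPD. TDH2, which encodes glyceraldehyde-3-phosphate dehydrogenase, averaged 53.2 in S96-I775E and 30.1 in S96 in 4NQO, and 22.0 in S96-I775E and 53.6 in S96 in YPD. With no background subtracted the difference between media was 0.48 at RPS14A, 0.34 at YGR079W and 0.51 at TDH2, and none of these 3 passed (adjusted p 0.337, 0.616 and 0.53). YGR079W and TDH2 were also lost in the m2 set (0.0551 and 0.0823), and PRE7 with the replicate block (0.0844) and without S96 YPD replicate 2 (0.0534).

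**Figure D5:**
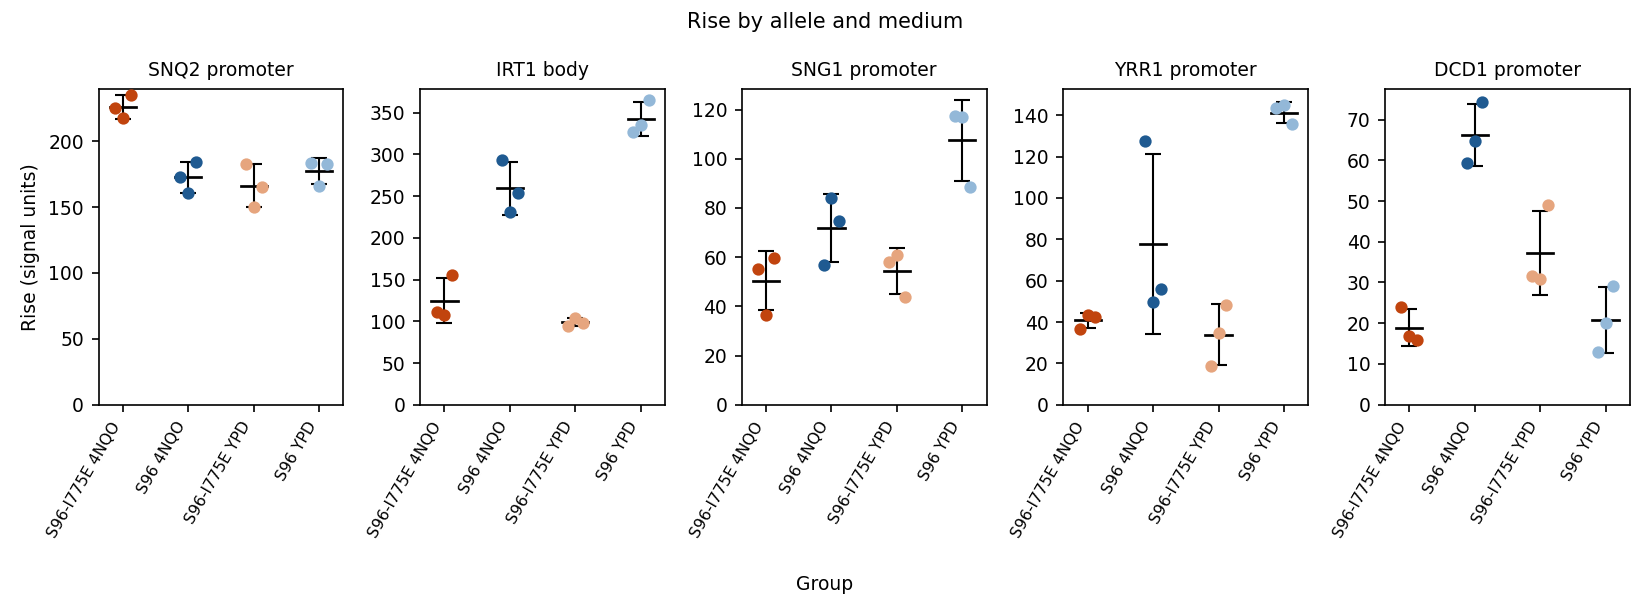
Rise (signal units) at the SNQ2, IRT1, SNG1, YRR1 and DCD1 regions in S96-I775E 4NQO, S96 4NQO, S96-I775E YPD and S96 YPD. Points are libraries, lines the mean and bars the SD (n = 3); IRT1 is lower with S96-I775E in both media, SNQ2 is higher with it in 4NQO, and at DCD1 the order of the alleles differs between media.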

How the data were processed

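Myc-tagged Yrr1 was mapped by ChIP-seq; CASAVA 1.7, Bowtie2 2.2.3, MACS2 2.1.0 and sacCer3 are listed, without their roles, per the submitters' processing notes. The deposited tables hold, per the file headers, a signal per region and library (the rise, and the score of ChIP minus input coverage and of background it is made of), MACS2 peaks per library with a pileup signal, a fold enrichment ratio and −log10 p and q values, and CisGenome peaks per group with a log2 fold change, a T score and an FDR (adjusted p-value). Whether CisGenome pooled libraries is not stated. MACS2 peaks and the rise were taken from 1 of 2 parameter sets, marked mn and m2 without explanation. The region table has 10 further value columns that were not used.

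Here log2(rise + 1) was fitted in limma 3.58.1 (R 4.3.3; trended empirical Bayes) over the 18 ChIP libraries, as 6 groups in one fit, at regions with at least 2 values per group, with Benjamini-Hochberg adjustment over 1350 regions at 0.05; an empty rise (7.32% of values) was left out. The fit was tested on simulated data. A fold change is on the log2(rise + 1) scale. Fold enrichment was compared with two-sided exact permutation tests, whose smallest p at 3 against 3 is 0.1. Peaks of a group were merged where they overlapped by at least 1 bp. A region is named after the gene whose start codon lies at most 500 bp downstream of its centre (genes with a symbol first), otherwise after the gene it lies in or the nearest one, with RefSeq annotation. The rule for named regions took the 4 Yrr1 sites, the 10 called regions of largest log2 difference in each direction whose libraries do not overlap, the called regions with peaks, the regions bound in both groups, the 5 bound regions of highest mean fold per group, the tested regions of drug resistance genes, and for the media the 5 regions of lowest p in each direction; the other called regions were named after their values were seen. The members and gene lists were chosen with earlier results of these data known. Settings tried were other pseudocounts (0.5 and 5), equal library medians, empty values at 0, complete regions, regions above the median mean rise, the m2 set, no trend, a linear scale, nuclear regions, the compared groups alone, a replicate block, coverage with no background subtracted (chosen after seeing the data), and each library left out; for peaks, 1 or 3 libraries, a fold of 2, −log10 q of 5, the m2 set and 50% overlap. Depth is unknown, so no counting intervals are given.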

Additional observations from a re-analysis of the deposited data

Results flagged for a closer look

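At 12 named regions the difference between S96-I775E and S96 itself differed between 4NQO and YPD, by the contrast of the differences in limma. The log2 difference in 4NQO minus that in YPD was 0.72 at IRT1 (adjusted p 0.0147) and 0.49 at the SNQ2 promoter (0.0377). It was 2.33 at RPS14A, 2.1999 at YGR079W and 2.09 at TDH2 (adjusted p 0.00713 each), 1.90 at the PRE7 promoter (0.0147) and 2.23 at the GAT1 promoter (0.038). It was -2.62 at the DCD1 promoter (0.00203), -2.26 at the PEX25 promoter (0.00713), -2.19 at the RPT2 promoter (0.0147), -2.14 at YNCM0023C and -2.47 near SNR52 (0.0154 each). The GAT1 promoter averaged 52.9 in S96-I775E and 16.6 in S96 in 4NQO, and 23.3 in S96-I775E and 37.3 in S96 in YPD (n = 2 in S96 in YPD). The GAT1 call was lost under 6 of 11 other settings, with a difference as low as 0.49 with empty rises at 0, and with any of 6 of the 12 libraries left out. With no background subtracted RPS14A (0.48), YGR079W (0.34), TDH2 (0.51) and RPT2 (-0.94) no longer passed. The S96 libraries in YPD, which enter each of these values, had 398 to 520 peaks of the reverse MACS2 test, against 79 to 86 in S96-I775E in YPD. The part of those libraries in these differences was not tested.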

How the results depend on the processing

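The count of 25 differing regions was 15 with empty rises at 0, 16 with no mean-variance trend, 13 with nuclear regions only and 15 with the replicate block, and 13 to 21 with a library left out. IRT1, DCD1 and the region near YLR462W passed under every alternative run. With no background subtracted 35 regions passed, 5 of them among the 25, and the median over all regions moved to 0.15. The sign turned at FAA1 with empty rises at 0 (0.21) and, with no background subtracted and coverage below 0 set to 0, at Q0255 (-2.17), the 2-micron plasmid (-0.83), the 3′ part of COX1 (-0.23), the 21S (-2.02) and the 15S (-2.30) ribosomal RNA genes.

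The count of 35 regions for the media was 19 with equal medians, 63 with empty rises at 0, 14 in the m2 set, 17 with no trend, 20 on a linear scale, 283 with no background subtracted (49 higher, 234 lower) and 13 to 37 with a library left out. With the replicate block, which joins same-numbered libraries of an allele across media, it was 28. Deviations of same-numbered libraries correlated at -0.066 to 0 between media in S96-I775E, 0.02 to 0.07 between media in S96 and -0.06 to 0.007 between alleles in 4NQO, so the numbers were not taken as pairs. Each library correlated best with its own number in S96 between media, and not in the other pairings. In addition, the PRE7 promoter turned to -0.0854 with empty rises at 0.

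Bound regions in S96-I775E and S96 were 14 and 8 with a peak in all 3 libraries (4 shared), 69 and 235 with a peak in at least 1 (42 shared), 8 and 5 at a fold of at least 2 (3 shared) and 8 and 10 at −log10 q of at least 5 (4 shared). With a library left out they were 16 to 23 in S96-I775E, 9 to 41 in S96 and 6 to 12 shared.

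The fold enrichment difference with a library left out was 1.07 to 1.22 at SNQ2, -2.20 to -1.75 at IRT1, -0.0876 to 0.0483 at SNG1 and -0.0126 to 0.0983 at YRR1. SNG1 turned to 0.0156 in the m2 set, 0.0123 without S96-I775E replicate 2 and 0.0483 without S96 replicate 2. YRR1 turned to -0.956 over the lowest listed background, to -36.8 on the rise, to -0.0126 without S96-I775E replicate 3 and to -0.0034 without S96 replicate 2. The cause of these changes was not tested. Read depth is unknown, and 3 libraries a group and 1 input each limit precision.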
